A study of Homo sapiens with 6 samples.

Results

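The genes described here encode the silencing machinery that acts behind KRAB zinc-finger proteins, together with the heterochromatin proteins of the HP1 family. They are TRIM28, SETDB1, ATF7IP, SUV39H1, CBX1, CBX3, CBX5, TASOR, MPHOSPH8 and MORC2. They were picked by symbol, and all 10 were found among the 29538 genes of the deposited count table. Expression was measured by poly(A) RNA-seq with strand-marking libraries in MDA-MB-231, an established, mesenchymal line of human breast cancer. The control cultures, siNC 1 to 3, received a negative-control siRNA, and another 3 (siBYSL 1 to 3) received SI-BYSL-Homo-838, an siRNA against BYSL, which encodes the ribosome assembly factor bystin. Both groups took 160 pmol of siRNA per well with Lipofectamine RNAiMAX, had their medium changed at 6 h and were harvested at 48 h. The labels call the cultures biological replicates. Every culture was of the same cell line and a single siRNA stood for the knockdown, so that effects of lost BYSL and of this siRNA's own sequence cannot be told apart.

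KRAB zinc-finger proteins bind chosen DNA sequences, many of them in old retroelements, and their KRAB domain recruits the scaffold protein TRIM28 (also called KAP1). TRIM28 brings in the histone methyltransferase SETDB1, which writes the silencing mark H3K9me3 with the help of its cofactor ATF7IP; SUV39H1 writes the same mark, chiefly at pericentromeric repeats. HP1 proteins read the mark: CBX5 encodes HP1 alpha, CBX1 HP1 beta and CBX3 HP1 gamma. The HUSH complex, which includes TASOR and MPHOSPH8, spreads silencing with SETDB1 and recruits the ATPase MORC2.

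Because an siRNA can lower other transcripts that pair with its seed, bases 2 to 8 of a strand, the strands are shown first, with the seed in capitals.
Guide (antisense) strand: uAUUCAGCaacgucaucuc
Passenger (sense) strand: gAGAUGACguugcugaaua
The longest annotated 3′ UTR of each gene (GENCODE 29, GRCh38) was searched for GCTGAAT, the site of the guide seed, and GTCATCT, the site of the passenger seed. Of the 10 genes, 1 held a guide site and 1 a passenger site, while 1550 of 13099 tested genes with a 3′ UTR (11.8%) held the first and 1586 (12.1%) the second. The guide site was in MORC2 and the passenger site in CBX5; the third sequence is the guide site of HNRNPA1, the neighbour of CBX5 that is described further on. Capitals mark the heptamers.
MORC2, chr22:30925706-30925734, minus strand: aggcaagcgttGCTGAATtttctctttaa
CBX5, chr12:54231721-54231749, minus strand: attcaacatctGTCATCTcttagtgtctg
HNRNPA1, chr12:54284847-54284875, plus strand: ctgatcgtgacGCTGAATaaatgtctttt
In HNRNPA1 an A follows the heptamer, which also pairs with base 1 of the guide; in MORC2 the next base is T. TASOR, CBX3, TRIM28, SUV39H1, MPHOSPH8, ATF7IP, CBX1 and SETDB1 held neither heptamer. Of the genes named from related lists further on, CBX6, TRIM66, DNMT3A, UHRF1 and ZKSCAN1 each held 1 passenger site. A match is a description of the sequence, and its part in any change was not tested.

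The libraries held 27754883 to 32088817 counts. BYSL itself stood at 99.9 ± 4.9 CPM (counts scaled by TMM library size) among controls and 16.4 ± 0.94 CPM after the knockdown (SD, n = 3 each), and every library followed its label (log2 fold change -2.61, SE 0.067, adjusted p = 9.4e-09). Of 16412 genes tested, 3032 were higher (18.5%) and 3027 lower (18.4%) in siBYSL. These are calls of the edgeR quasi-likelihood test at a Benjamini-Hochberg adjusted p under 0.05. With library totals in place of TMM factors 67.37% of the calls were higher, against 50.04%. The third siBYSL library was set off from its group (chi-square per degree of freedom 20.1 and 12.3, against 3.21 between siBYSL 1 and 2). The markers VIM, CD44, AXL, CAV1 and MSN summed to 5270 to 5340 CPM in the controls and 4450 to 4650 in siBYSL, with 1 called higher and 4 lower. Of 8 luminal epithelial markers ESR1, PGR and FOXA1 stood under 1 CPM, but the sum was 1270 to 1360 CPM in the controls and 1270 to 1560 in siBYSL, nearly all of it KRT8 and KRT18. CDH1 rose from 4.48 ± 0.10 to 9.18 ± 1.1 CPM and EPCAM from 14.4 ± 0.62 to 20.9 ± 0.12 CPM (edgeR adjusted p = 6.64e-05 and 1.64e-04), while GATA3, KRT8 and KRT18 were not called. Of 5 fibroblast markers, DCN was under 1 CPM and the sum was 14.9 to 17.5 CPM in the controls and 18.8 to 19.2 in siBYSL. Among the 4 tested, 1 was called higher (PDGFRB, edgeR adjusted p = 0.0461) and 0 lower. Of 4 blood and endothelial markers measured, PTPRC and VWF were under 1 CPM and the sum was 8.71 to 9.87 and 11.2 to 12.9 CPM. Among the 2 tested, 1 was called higher (CD68, edgeR adjusted p = 0.0136) and 0 lower. The part of such cells in the results was not tested.

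The machinery did not move in one direction. TASOR, MPHOSPH8, ATF7IP and CBX5 were higher in siBYSL, CBX3, SUV39H1 and TRIM28 were lower, and CBX1, SETDB1 and MORC2 were not called. That is 7 of 10 called, where 36.9% of all genes tested were called. The median siNC level of the 10 was 55.9 CPM against 18.1 CPM over all genes tested, so that share is not matched for level. The 10 were also chosen with earlier results of these data known. The median log2 fold change of the 10 was 0.10, against 0.0066 over all genes. Apart from TASOR, all changes were smaller than 0.26 on the log2 scale in either direction. In 9 of the 10, all but MORC2, the CPM ranges of the groups did not overlap, 6 higher and 3 lower; the same held for 49.6% of all genes. Exons of MORC2, SUV39H1, SETDB1, CBX3 and TASOR overlap those of genes on the opposite strand, and whether the counting used strand is not given. Bulk RNA cannot tell fewer transcribing cells from less RNA per cell. The split rests on the scaling: with library totals 6 of the 10 were called higher and 1 lower, and with upper-quartile factors 5 and 2. It also rests on the number of libraries. With one library left out the count of calls ran from 2 (without siNC 1) and 3 (without siNC 2 or siBYSL 2) through 4 (without siNC 3 or siBYSL 1) to 8 (without siBYSL 3).

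**Figure D1:**
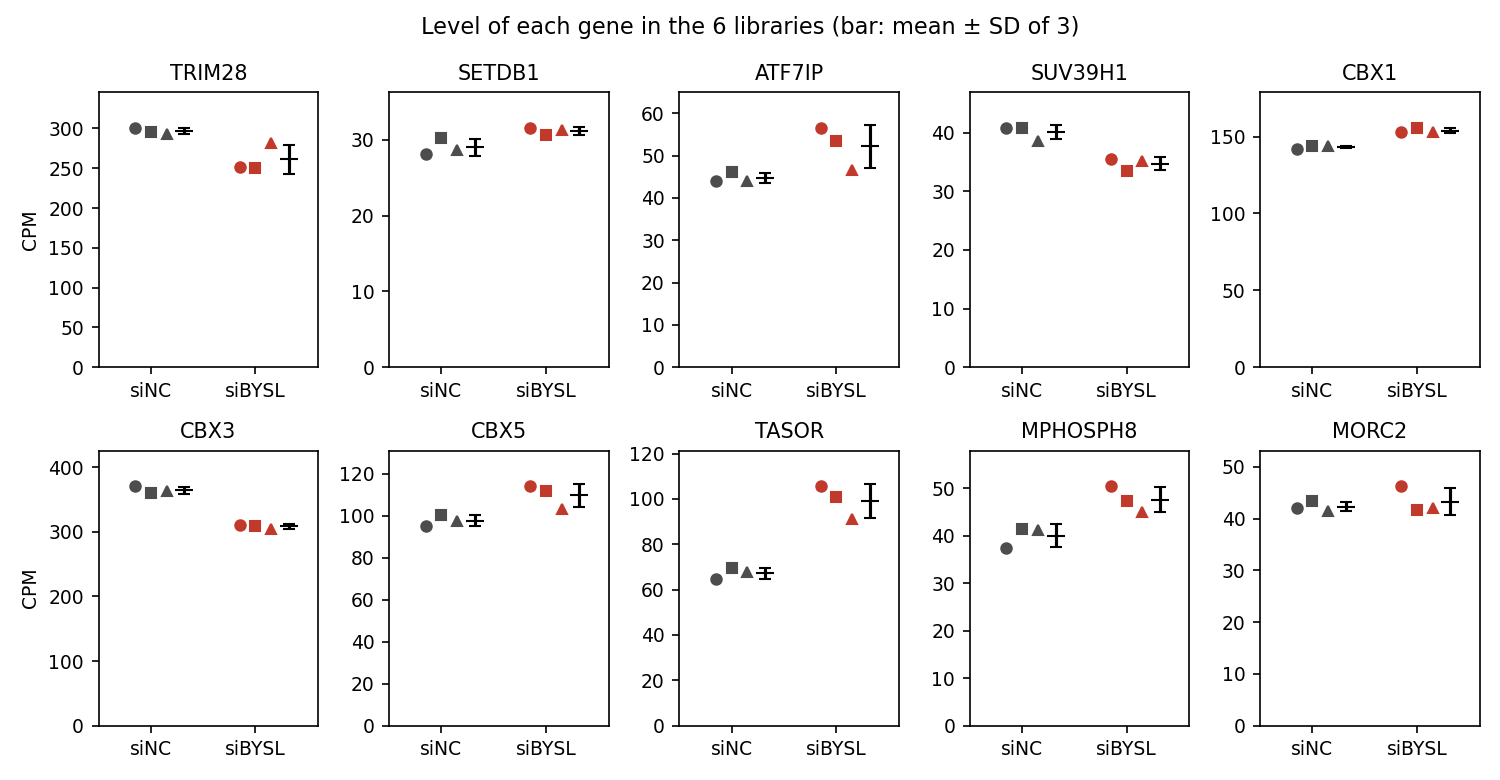
Level in CPM (vertical axis, from 0) of each of the 10 genes in 3 siNC libraries (grey) and 3 siBYSL libraries (red); circles, squares and triangles are replicates 1, 2 and 3, and the bar is the mean ± SD. TASOR, at 67.2 against 99.1 CPM, shows the largest fold change, and the MORC2 ranges overlap.

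TRIM28 (ENSG00000130726.12), on chromosome 19 at 58544091 to 58550722, was among the most abundant of the set. Its level was 300.7, 295.5 and 293.0 CPM in the siNC libraries, against 251.3, 249.8 and 282.2 CPM in siBYSL 1 to 3. All siBYSL libraries lay below all siNC libraries, with siBYSL 3 the nearest to them. The log2 fold change was -0.18 (SE 0.058, edgeR adjusted p = 0.030), to 88.1% of the control level. The call did not hold with library totals (-0.11, adjusted p = 0.167) or upper-quartile factors (adjusted p = 0.0942). It was also lost when siNC 1, siNC 2, siNC 3, siBYSL 1 or siBYSL 2 was left out (adjusted p 0.0753 to 0.136).

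SETDB1 (ENSG00000143379.12, chromosome 1, 150926263 to 150964744) stood at 28.1, 30.2 and 28.7 CPM in the controls and 31.6, 30.6 and 31.3 CPM in siBYSL. The ranges came close but did not overlap, and the difference was not called (log2 fold change 0.10, 95% interval -0.014 to 0.22, edgeR adjusted p = 0.201). With library totals it was called (0.18, adjusted p = 0.0456). ATF7IP (ENSG00000171681.13, chromosome 12, 14365632 to 14502935), whose product binds SETDB1 and keeps it active in the nucleus, was at 43.9, 46.1 and 44.1 CPM in siNC. In siBYSL it was at 56.6, 53.5 and 46.6 CPM, so that siBYSL 3 lay just above the highest control. ATF7IP rose by 0.22 (SE 0.073, edgeR adjusted p = 0.0339), to 116.8% of the control. Its call was lost without siNC 1, siNC 2, siNC 3, siBYSL 1 or siBYSL 2 (adjusted p 0.0662 to 0.122).

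Within each library the count of SETDB1 relative to TRIM28 does not depend on scaling. It was 0.0934, 0.102 and 0.098 in the controls, against 0.126, 0.123 and 0.111 in siBYSL. The groups did not overlap, and the mean log2 ratio was higher by 0.29 in siBYSL (exact two-sided permutation p = 0.1, the smallest that 3 against 3 can give). This and 6 other ratios were chosen after the values were seen, and each of the 7 gave that same p, also after Benjamini-Hochberg adjustment.

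SUV39H1 (ENSG00000101945.17, chromosome X, 48695554 to 48709012) was lower. It was at 40.8, 40.8 and 38.6 CPM in the controls and 35.4, 33.4 and 35.2 CPM in siBYSL, with a clear gap between the groups. The log2 fold change was -0.21 (SE 0.058, edgeR adjusted p = 0.0167). The call was lost with library totals (-0.13, adjusted p = 0.118) and without siNC 1, siNC 2 or siBYSL 2 (adjusted p 0.0695 to 0.0853). Its paralog SUV39H2, a methyltransferase of the same mark, rose from 21.4 ± 1.9 to 30.3 ± 0.79 CPM (0.50, SE 0.075, edgeR adjusted p = 4.37e-04).

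The 3 HP1 genes differed in direction. CBX3 (ENSG00000122565.19, chromosome 7, 26201162 to 26213356), the most abundant of the 10, was at 370.2, 359.4 and 362.6 CPM in the controls and 311.0, 309.2 and 304.6 CPM in siBYSL. The replicates were tight and the groups stood well apart. CBX3 fell by 0.24 on the log2 scale (SE 0.047, edgeR adjusted p = 0.00256), to 84.7% of the control level, and was called lower under every alternative run. With library totals its value was -0.16 (adjusted p = 0.0279).

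CBX5 (ENSG00000094916.16, chromosome 12, 54230940 to 54280133) was at 95.0, 100.3 and 97.4 CPM in the controls and 113.9, 111.6 and 103.2 CPM in siBYSL. Again siBYSL 3 lay nearest to the controls. CBX5 rose by 0.17 (SE 0.055, edgeR adjusted p = 0.0336). The call was lost without siNC 1, siNC 2, siNC 3, siBYSL 1 or siBYSL 2 (adjusted p 0.0662 to 0.137), in the DESeq2 Wald test (0.0542) and with no filter on low counts (0.0634). CBX1 (ENSG00000108468.15, chromosome 17, 48070052 to 48101521) was at 142.2, 143.6 and 144.0 CPM in the controls and 152.8, 155.7 and 153.0 CPM in siBYSL. The groups did not overlap, but the difference was not called (0.10, 95% interval 0.014 to 0.19, edgeR adjusted p = 0.0969). It was called without siBYSL 3 (adjusted p = 0.0238), with library totals (0.0142) and with upper-quartile factors (0.0243).

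**Figure D2:**
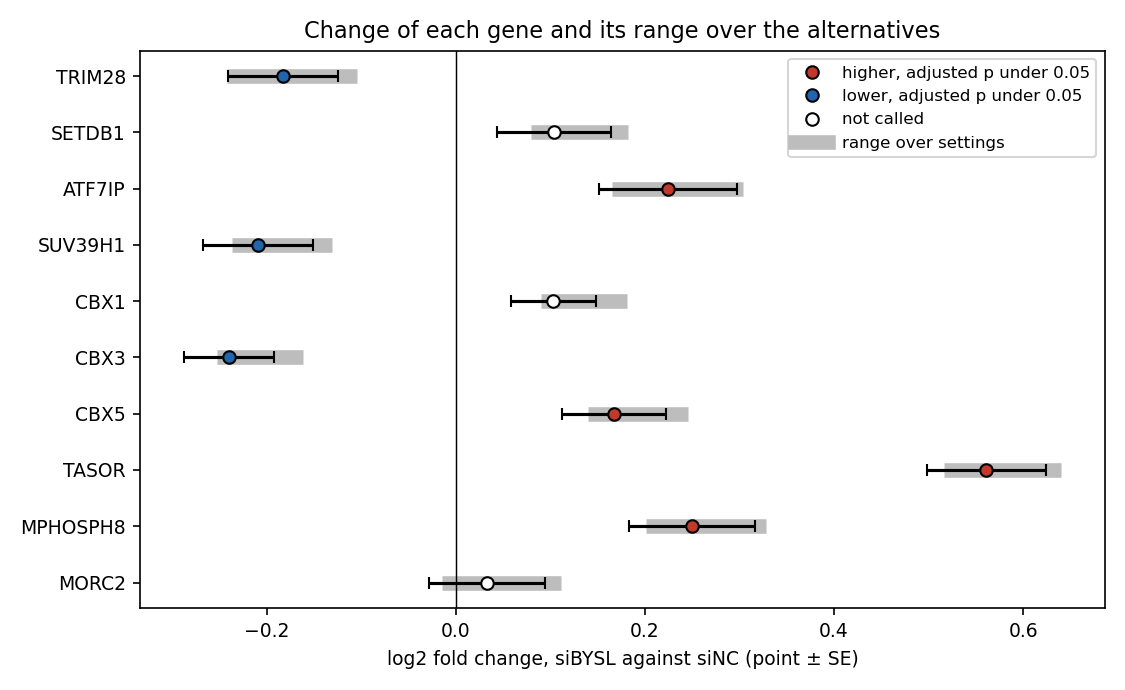
Log2 fold change of siBYSL against siNC (horizontal axis) for each of the 10 genes; points are edgeR estimates with SE bars, filled where called, and grey bands span the values under all settings tried. Only the band of MORC2 crosses 0.

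The make-up of the HP1 transcripts therefore shifted. In counts per kilobase of annotated exons, CBX3 made up 60.4%, 59.3% and 59.5% of the HP1 transcripts in the controls, against 54.0%, 53.5% and 53.8% in siBYSL 1 to 3. CBX1 made up 34.9%, 35.6% and 35.5% in the controls, against 39.9%, 40.5% and 40.6% in siBYSL. CBX5 made up 4.78%, 5.11% and 4.94% in the controls, against 6.1%, 5.96% and 5.62% in siBYSL. In each gene the groups did not overlap, and shares within a library do not depend on its scaling. They do depend on the length used: per kilobase of the longest coding transcript CBX3 took 71.7% ± 0.47 in the controls and 66.5% ± 0.20 in siBYSL (SD, n = 3 each). CBX5 counts were 0.268 ± 0.011 of CBX3 counts in siNC and 0.355 ± 0.015 in siBYSL, a log2 difference of 0.41 (exact permutation p = 0.1). CBX1 counts were 0.394 ± 0.0083 and 0.499 ± 0.0068 of CBX3 counts, a difference of 0.34 (exact permutation p = 0.1). Both ratios were chosen after the values were seen, so their separation and this p are no independent support. With TMM scaling the 3 genes together were at 605 ± 2.2 CPM in the controls and 572 ± 9.4 CPM in siBYSL. Unlike the shares, this sum depends on the scaling. With library totals the log2 fold change was -0.16 for CBX3, 0.25 for CBX5 and 0.18 for CBX1, and the sum was not computed there.

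**Figure D3:**
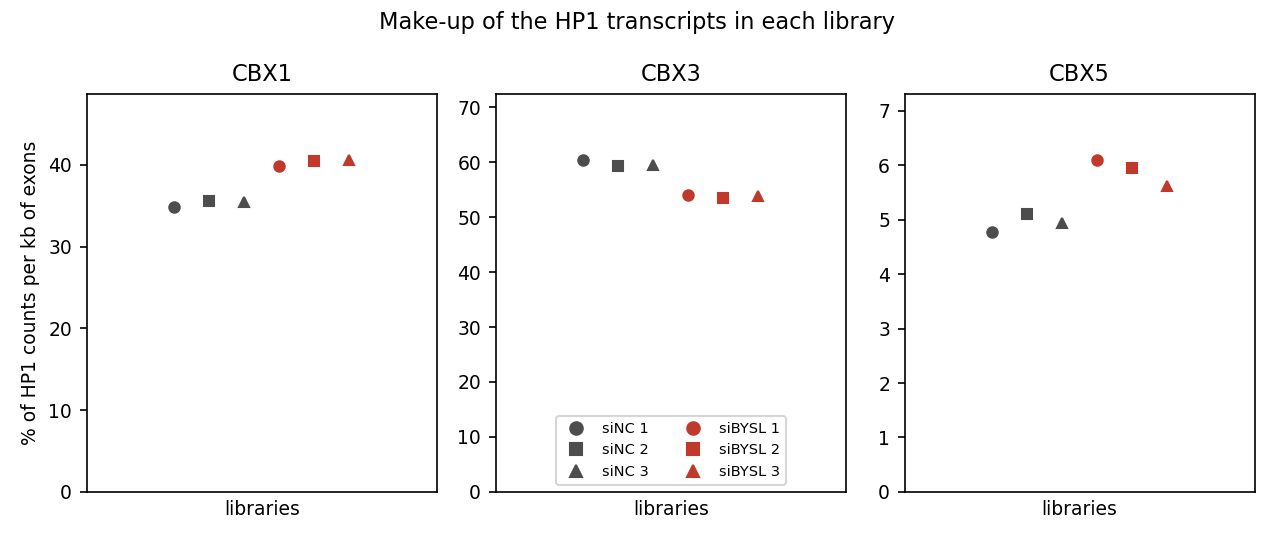
Share of CBX1, CBX3 and CBX5 in the HP1 counts per kilobase of exons (vertical axes from 0, differing between panels), 1 point per library, grey for siNC and red for siBYSL. CBX3 lies at 59.3% to 60.4% in siNC and 53.5% to 54.0% in siBYSL, and CBX1 and CBX5 lie higher in siBYSL.

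TASOR, the scaffold of the HUSH complex, showed the largest change of the 10. The gene (ENSG00000163946.14, listed as FAM208A in GENCODE 29) lies on chromosome 3 at 56620133 to 56683237 on the minus strand. It drew 1807, 1943 and 2005 reads of siNC 1 to 3, against 3044, 3329 and 2624 in siBYSL 1 to 3. After scaling these were 64.7, 69.3 and 67.5 CPM against 105.5, 100.7 and 91.1 CPM. Every siBYSL library stood far above every control, siBYSL 3 again the least. TASOR rose by 0.56 (SE 0.063, edgeR adjusted p = 7.41e-05), to 147.5% of the control level, and stayed called under every alternative run. In size this change exceeded that of 85.8% of all genes tested. For the rest of the set this share ran from 8.52% (MORC2) to 55.9% (MPHOSPH8).

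MPHOSPH8 (ENSG00000196199.14, chromosome 13, 19633681 to 19673459) encodes the HUSH subunit that reads H3K9me3 through its chromodomain. It was at 37.3, 41.5 and 41.2 CPM in the controls and 50.4, 47.4 and 45.0 CPM in siBYSL, with no overlap. It rose by 0.25 (SE 0.067, edgeR adjusted p = 0.0133), a call lost without siNC 1 (0.20, adjusted p = 0.0745). PPHLN1, which encodes periphilin, another HUSH subunit, was at 59.8 ± 0.40 CPM in the controls and 55.5 ± 1.3 in siBYSL (-0.11, 95% interval -0.21 to -0.0072, edgeR adjusted p = 0.124). The subunits thus had unlike values. TASOR counts were 1.12 ± 0.032 times those of PPHLN1 in siNC and 1.78 ± 0.094 times in siBYSL, and 1.68 ± 0.048 and 2.08 ± 0.053 times those of MPHOSPH8. Both ratios were higher in all siBYSL libraries than in any control, by 0.67 and 0.31 on the log2 scale (exact permutation p = 0.1 each). They were among the ratios chosen after the values were seen, so their separation and this p are no independent support.

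MORC2 (ENSG00000133422.14, chromosome 22, 30925130 to 30968298), the carrier of a guide site, was at 42.0, 43.4 and 41.5 CPM in the controls and 46.2, 41.7 and 41.9 CPM in siBYSL. The groups overlapped, with siBYSL 1 above all others. The log2 fold change was 0.033 with a 95% interval of -0.087 to 0.15 (edgeR adjusted p = 0.709). Without siBYSL 1 it was -0.015.

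In level per kilobase of exons, the siNC order was CBX3 (78.5 ± 1.2 CPM per kb), TRIM28 (73.5 ± 0.97), CBX1 (46.4 ± 0.30), SUV39H1 (11.9 ± 0.37) and MPHOSPH8 (8.16 ± 0.48). Below them came TASOR (6.84 ± 0.24), MORC2 (6.76 ± 0.15), CBX5 (6.49 ± 0.18), SETDB1 (4.09 ± 0.15) and ATF7IP (3.39 ± 0.094; SD, n = 3). TASOR, MORC2 and CBX5 did not differ beyond their spread. The methyltransferase and HUSH transcripts were thus far scarcer than those of TRIM28, CBX1 and CBX3. In siBYSL, TASOR stood at 10.1 ± 0.75 CPM per kb, within the spread of SUV39H1 (10.3 ± 0.33) and MPHOSPH8 (9.70 ± 0.54). Per kilobase of the longest coding transcript, MORC2 and CBX5 changed places in siNC (8.16 and 8.47 CPM per kb). By that length TASOR lay above both in siNC, at 9.44, beside MPHOSPH8 at 9.45. In siBYSL it put TASOR at 13.9, above SUV39H1 (11.6) and MPHOSPH8 (11.2), so the likeness of these genes depends on the length used.

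Promoters of CBX5, CBX3 and TASOR are shown, the first 2 because they lie head to head with genes of abundant RNA-binding proteins, the last because TASOR changed most. CBX5 and HNRNPA1 lie on opposite strands of chromosome 12 with 59 bases between the gene models, and the models of CBX3 and HNRNPA2B1 on chromosome 7 overlap by 368 bases (GENCODE 29). The sequences run from 250 bases before to 50 after the gene start (RefSeq, GRCh38.p14); CBX5 and TASOR have 3 such windows each, of which the one farthest upstream is shown. Both strands were searched, and matches are in capitals. The motifs were the E-box, written CACGTG, and the TATA box, written TATAAA. Other core promoter motifs were the CCAAT box, spelled as its name, and the GC box, written GGGCGG. The ETS family was searched by its core, written CCGGAAG, and the factor YY1 by its core, written AAGATGG. The palindromic motif of NRF1 was searched too, and none of these motifs share bases in the windows shown.
CBX5, chr12:54280073-54280372, minus strand: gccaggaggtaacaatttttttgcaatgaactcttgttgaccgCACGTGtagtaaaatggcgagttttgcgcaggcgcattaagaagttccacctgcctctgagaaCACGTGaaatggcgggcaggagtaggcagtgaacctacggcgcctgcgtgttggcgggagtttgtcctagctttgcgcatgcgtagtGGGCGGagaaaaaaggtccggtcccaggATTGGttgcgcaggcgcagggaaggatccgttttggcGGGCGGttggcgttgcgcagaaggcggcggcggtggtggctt
CBX3, chr7:26201193-26201492, plus strand: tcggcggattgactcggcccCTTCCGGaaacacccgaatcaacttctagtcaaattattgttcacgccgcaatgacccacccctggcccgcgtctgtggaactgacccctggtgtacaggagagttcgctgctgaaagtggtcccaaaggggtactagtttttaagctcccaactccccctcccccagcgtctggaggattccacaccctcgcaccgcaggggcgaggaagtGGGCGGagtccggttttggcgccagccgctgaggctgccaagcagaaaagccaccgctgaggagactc
TASOR, chr3:56683216-56683515, minus strand: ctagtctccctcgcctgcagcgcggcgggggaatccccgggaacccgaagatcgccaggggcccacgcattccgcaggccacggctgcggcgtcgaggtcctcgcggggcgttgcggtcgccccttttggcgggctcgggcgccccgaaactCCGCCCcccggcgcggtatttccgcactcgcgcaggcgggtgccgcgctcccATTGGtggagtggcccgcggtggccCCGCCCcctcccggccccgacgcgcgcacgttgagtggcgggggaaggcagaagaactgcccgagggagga
The CBX5 window held 2 E-boxes, 1 CCAAT box and 2 GC boxes; that of CBX3 held 1 ETS core and 1 GC box, and that of TASOR 1 CCAAT box and 2 GC boxes. Among all 35116 promoters of this length, 7.26% held the E-box, 34.6% the CCAAT box, 10.3% the ETS core and 45% the GC box; the TATA box, the YY1 core and the NRF1 motif, at 11.5%, 5.84% and 1.24%, had no match in the 3 windows. These windows held 25, 19 and 43 CG dinucleotides, against a median of 14 over all promoters.

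The neighbours and the HP1 genes had unlike changes. HNRNPA1 was at 811.4, 836.9 and 823.9 CPM in the controls and 488.2, 489.1 and 469.4 CPM in siBYSL, while CBX5 across the promoter was higher. HNRNPA1 fell by 0.77 (SE 0.050, edgeR adjusted p = 2.54e-06), to 58.5% of the control. The ratio of CBX5 to HNRNPA1 counts went from 0.118 ± 0.0014 to 0.227 ± 0.0068 (log2 difference 0.94, exact permutation p = 0.1). HNRNPA2B1 was at 1234, 1266 and 1247 CPM in the controls and 1313, 1291 and 1205 CPM in siBYSL (0.024, 95% interval -0.083 to 0.13, edgeR adjusted p = 0.762), while CBX3 was lower. The ratio of CBX3 to HNRNPA2B1 counts was 0.292 ± 0.0081 in siNC and 0.243 ± 0.0086 in siBYSL, a log2 difference of -0.26 (exact permutation p = 0.1). These ratios too were chosen after the values were seen, so this p is no independent support.

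**Figure D4:**
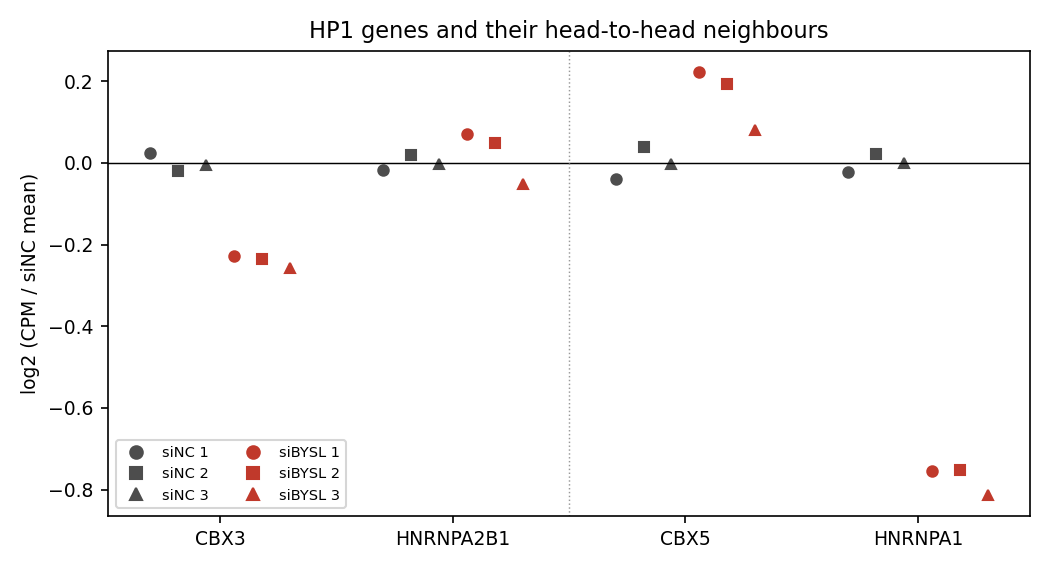
Log2 of CPM over the siNC mean (vertical axis) for CBX3, CBX5 and their head-to-head neighbours, 1 point per library. HNRNPA1 lies between 469.4 and 489.1 CPM in siBYSL, far below its siNC mean of 824.1, while CBX5 lies above its own; HNRNPA2B1 straddles 0 and CBX3 lies below it.

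Genes that work beside the 10 were read from lists made by function, against 18.5% higher and 18.4% lower among all genes tested. The lists were made with earlier results of these data known. Of 8 relatives and partners of HUSH and MORC2, 2 rose (25.0%, near that background) and 0 fell, with a median of 0.069. RESF1, a partner of SETDB1 in retroelement silencing, rose from 18.0 ± 0.46 to 29.6 ± 2.3 CPM (0.71, SE 0.073, edgeR adjusted p = 4.24e-05). LRIF1, which binds HP1, rose by 0.31 (adjusted p = 0.0155, but 0.0522 to 0.065 without siNC 1, siNC 3 or siBYSL 2). ZNF638, a DNA-binding partner of HUSH, stood at 0.083 (adjusted p = 0.341, and 0.0497 without siBYSL 3). Without siBYSL 3 the count was 5 rises, and without siNC 1, siNC 3 or siBYSL 2 it was 1; without siBYSL 1 it was 2 rises and 1 fall.

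Of 10 paralogs of TRIM28 and of the HP1 genes 3 rose (30.0%, against 18.5% of all genes) and 0 fell (against 18.4%), with a median of 0.20. They were TRIM24 (0.30, edgeR adjusted p = 9.47e-04), which like TRIM28 belongs to the TIF1 family and carries 2 guide sites, and the Polycomb chromobox genes CBX6 (0.44, adjusted p = 0.00114) and CBX2 (0.35, adjusted p = 0.00372). TRIM66 stood at 0.37 (adjusted p = 0.0592), called without siNC 3 (0.0329) or siBYSL 3 (0.0366), with library totals (0.0276) or upper-quartile factors (0.0377) and with no filter (0.0452). Without siBYSL 3 there were 6 rises in this list. Of 8 other H3K9 methyltransferase genes and cofactors 3 rose (37.5%, against 18.5% of all genes) and 0 fell (against 18.4%), with a median of 0.14: SUV39H2, EHMT1 (0.35, adjusted p = 0.00176) and WIZ (0.30, adjusted p = 0.00225), the last 2 encoding partners in the G9a/GLP complex. PRDM2 stood at 0.19 (adjusted p = 0.146). Without siBYSL 3 there were 5 rises here, with PRDM2 among them (adjusted p = 0.00197).

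Of 11 H3K9 demethylase genes 3 rose (27.3%) and 1 fell (9.09%), with a median of 0.015; as 36.9% of all genes were called, 4 of 11 is no more than the background. KDM4B rose by 0.35, PHF2 by 0.34 and KDM3B by 0.34 (edgeR adjusted p = 0.00383, 0.00802 and 0.00871), the last at 0.0524 without siNC 3. KDM1A, which encodes LSD1, fell by 0.17 (adjusted p = 0.0233); its call was lost with library totals (-0.096, adjusted p = 0.226), with upper-quartile factors (0.0621) and without siNC 1, siNC 2, siNC 3 or siBYSL 2 (0.0577 to 0.0968). Without siBYSL 1 the list held 3 rises and 2 falls.

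NuRD is a deacetylase and remodelling complex that TRIM28 also recruits. Of its 13 genes 4 rose (30.8%, against 18.5% of all genes) and 2 fell (15.4%, against 18.4%), with a median of 0.11. With library totals, and also without siBYSL 3, 6 rose and 2 fell. MBD3 fell from 148.5 ± 6.4 to 95.5 ± 9.5 CPM (-0.64, SE 0.071, edgeR adjusted p = 6.85e-05) and MTA2 fell by 0.28 (adjusted p = 0.00105). MTA1 rose by 0.43 (adjusted p = 1.95e-04) and the deacetylase gene HDAC1 by 0.32 (adjusted p = 4.88e-04). Of 13 genes of DNA methylation 1 rose (7.69%) and 4 fell (30.8%), with a median of -0.18; 5 of 13 called is near the background of 36.9%. With library totals 3 rose and 2 fell (median -0.10), and without siBYSL 3 it was 3 and 4. The methyltransferase gene DNMT3A rose from 9.99 ± 0.95 to 16.4 ± 1.1 CPM (0.71, SE 0.092, edgeR adjusted p = 1.86e-04). The methyl-CpG reader MBD1, with 2 guide sites, fell by 0.45 (adjusted p = 2.68e-04) and the demethylase gene TET1, with 1, by 0.96 from a low 1.59 CPM (adjusted p = 0.00712). UHRF1, which recruits the maintenance methyltransferase, fell by 0.22 (adjusted p = 0.00686), a call lost with library totals (0.0693). Without siBYSL 1, 6 genes of this list fell.

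Of 17 genes for proteins that bind HP1 or act at heterochromatin 2 rose (11.8%, against 18.5% of all genes) and 2 fell (11.8%, against 18.4%), with a median of 0.0054. With library totals 4 rose and 2 fell. The histone chaperone DAXX fell by 0.32 (edgeR adjusted p = 0.00156) and the mitotic kinase AURKB by 0.24 (adjusted p = 0.00718). POGZ, which binds HP1, rose by 0.26 (adjusted p = 0.00753). KMT5B, an H4K20 methyltransferase gene with 1 guide site, rose by 0.20 (edgeR adjusted p = 0.0345). Its call was lost without siNC 1, siNC 2, siNC 3, siBYSL 1 or siBYSL 2 (0.0743 to 0.129), with no filter (0.0685) and in the DESeq2 Wald test (0.0642). Without siBYSL 3 there were 6 rises and 2 falls, without siBYSL 1 there were 1 rise and 3 falls, and without siNC 1, siNC 2, siNC 3 or siBYSL 2 there were 1 rise and 2 falls.

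The KRAB zinc-finger genes themselves were mostly higher. Of 56 genes in the list 53 were tested, ZFP57, ZNF257 and ZNF676 being too low. Of the 53, 31 rose (58.5%) and 1 fell, where 18.5% and 18.4% of all genes did, and the median log2 fold change was 0.33. The list was made with earlier results of these data known, so this contrast is not an independent test. ZNF845 stood at 5.90 ± 0.74 CPM in the controls and 14.4 ± 0.68 in siBYSL (1.28, SE 0.10, edgeR adjusted p = 8.07e-06). ZKSCAN1 rose from 25.0 ± 1.0 to 46.5 ± 1.2 CPM (0.90), ZNF354A from 15.1 ± 0.22 to 28.4 ± 2.1 (0.92) and ZNF85 from 9.95 ± 0.34 to 17.4 ± 0.21 (0.81). The 1 gene that fell, named here after its value was seen, was ZNF496 (-0.35, adjusted p = 0.00158). Of the 53, 9 held a guide site, 3 of them among the 31 that rose. The count of rises was 25 to 36 with a library left out and 36 with library totals, with 1 fall each time. Many of these genes are near copies of each other, so reads can be split between them, and their median level in siNC was 9.95 CPM against 18.1 CPM over all genes tested.

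**Figure D5:**
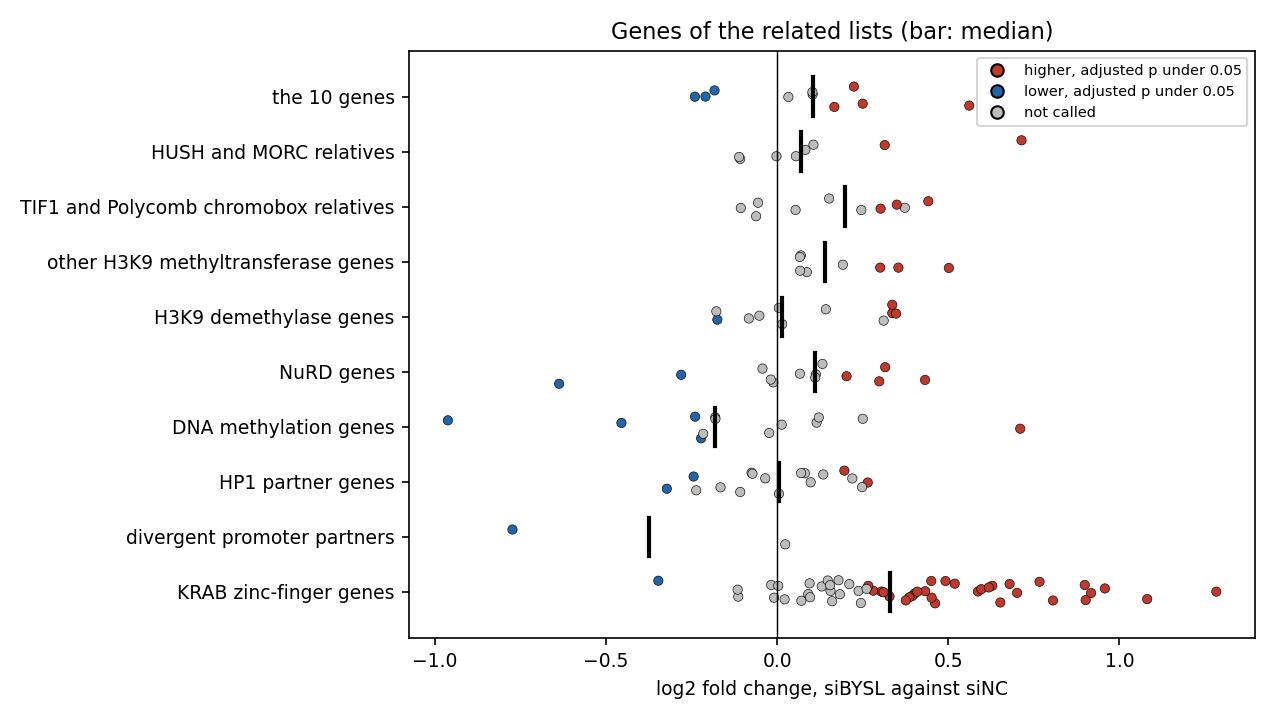
Log2 fold change of siBYSL against siNC (horizontal axis) for each tested gene of the 10 and of the related lists, 1 point per gene, spread vertically at random for legibility, red or blue where called higher or lower; black bars are medians. The KRAB zinc-finger genes have the highest median, 0.33, and the DNA methylation genes lie at -0.18.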

How the data were processed

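Gene expression was measured in 6 cultures. The authors deposited raw counts per gene, whole numbers under versioned Ensembl identifiers for 29538 genes. HISAT2, DESeq2 and the build GRCh38.p13 are named, without role, per the submitters' processing notes. Counter, strand setting and annotation release: not given in the sources used here. Filtering used filterByExpr by group (16412 genes left); counts were scaled with TMM factors and tested in edgeR by robust quasi-likelihood F test with group as the only term, Benjamini-Hochberg over all genes tested. The SE is the absolute log2 fold change over the square root of F, and a 95% interval is 1.96 SE either way. Such an interval is a normal approximation and is narrower than the F test with so few libraries would give. The libraries' 27754883 to 32088817 counts, and edgeR's common BCV (biological variation) of 0.0649, bound the precision. P-values describe the spread between cultures of 1 line. Ratios within a library were compared with exact two-sided permutation tests.

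Samples were grouped by title. Named were the 10 genes, BYSL and up to 4 genes of smallest p in each of 9 lists. The members and lists were chosen with earlier results of these data known. Coordinates, lengths and 3′ UTRs came from GENCODE 29 (GRCh38), where 98.9% of tested genes matched by identifier, and may differ from the submitters' annotation; promoters came from RefSeq, where 9 of the 10 genes matched. Alternatives were scaling by library totals, by upper quartiles or by the size factors of DESeq2; filtering at 1 CPM or more in 3 libraries, or not at all; limma-voom or the DESeq2 Wald test in place of edgeR; a replicate block; and each library left out. Tools were edgeR 4.0.16, DESeq2 1.42.0 and limma 3.58.1 under R 4.3.3, and Python 3.11.15, pandas 2.3.3, NumPy 2.4.6, SciPy 1.17.1 and Matplotlib 3.10.9.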

Additional observations from a re-analysis of the deposited data

How the results depend on the processing

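BYSL was called lower in all settings (log2 fold change -2.66 to -2.53). The count of genes called was 5467 to 6637 under the other scalings, filters and tests, and 4226 to 8004 with a library left out. For the 10 genes those counts were 5 to 7, and 2 to 8 with a library left out, where fewer samples were compared. Of the fits of the 10 genes under an alternative, 109 kept direction and side of the threshold, 26 lost a call, 4 gained one and 1, MORC2 without siBYSL 1, changed sign (-0.015, with 0.018 to 0.059 when another library was left out). Among the other named genes 448 kept both, 20 lost a call, 8 gained one and 0 changed sign. The replicate block gave 5566 calls, 5 of them among the 10 genes; the calls of TRIM28 (adjusted p = 0.0555), CBX5 (0.0675), KDM1A (0.0545) and KMT5B (0.0615) were not made there, and TRIM66 (0.0498) was. Replicate numbers showed no sign of pairing the samples. Deviations of same-numbered libraries correlated over genes at -0.129, 0.0596 and 0.0106, and siNC 1 correlated best with siBYSL 3 (0.151). With 3 libraries per group, such correlations cannot settle whether the cultures were made in matched rounds. Searching every annotated 3′ UTR of the 10 genes, and not the longest alone, gave no higher count of seed sites in any of them.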

Other observations

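Reads of close relatives were few. Pseudogenes of CBX1, CBX3 and CBX5 (CBX1P3, CBX3P2, CBX3P4, CBX3P9 and CBX5P1) held 0 to 11 counts in any library, and MORC2-AS1 held 1 to 10, all too low to be tested. How reads that fit both a gene and its copy were counted is not given in the sources used here. In GENCODE 29, exons of genes on the opposite strand covered 25.8% of the exon bases of MORC2 (MORC2-AS1), 20.3% of SUV39H1, 13.4% of SETDB1 (CERS2), 7.93% of CBX3 (HNRNPA2B1) and 2.92% of TASOR (CCDC66). The libraries marked strand, but whether the counting used it is not given, and reads shared with these neighbours were not separated here.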
